A study of Mus musculus with 36 samples.

Results

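The regions described here were accessible in MPP2, a multipotent progenitor fraction of mouse bone marrow, and were called in no library of HSCs, MPP4s, GMPs or CLPs. All peaks of the 36 ATAC-seq libraries that overlapped by 1 bp or more were merged into 105005 regions, and a region was kept when a peak was called there in 2 or more of the 4 MPP2 libraries and in 0 of the 20 HSC, MPP4, GMP and CLP libraries. This rule left 621 regions, called members below, of the 34267 regions called in 2 or more MPP2 libraries. The members were thus chosen by peak calls in MPP2, HSC, MPP4, GMP and CLP, and values in these 5 fractions are given as a description. Differences between fractions or ages were tested only on calls in MPP1, MPP3 and MEP and on the sequence, which the rule did not use. A screen for outlying libraries at the end also covers MPP2 and serves only to flag libraries.

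The study profiled chromatin accessibility in 8 sorted fractions from young (10-week-old) and aged (20-month-old) mice, with 4 libraries per age for HSCs and 2 per age for MPP1, MPP2, MPP3, MPP4, GMP, MEP and CLP. The animals were female C57BL/6 mice, and the labels name no altered allele and no treatment. MPP2s were sorted as lineage-negative cells positive for Sca-1, c-kit, CD34, CD150 and CD48 and negative for Flt3, so that MPP1s differed from them in the gate by lacking CD48, MPP3s by lacking CD150, and HSCs by lacking both CD34 and CD48. MEPs were the Sca-1-negative, c-kit-positive cells without FcγR and CD34, GMPs the corresponding cells with both, MPP4s the Flt3-positive counterpart of MPP3s, and CLPs the IL-7 receptor-positive cells low for Sca-1 and c-kit. Marrow was pooled across mice before sorting, so the libraries of a group were separate sorts and not single animals, and p-values measure only the spread between these libraries.

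MPP2s are multipotent progenitors with a bias towards the megakaryocyte and erythroid lineages. In these lineages GATA1 and GATA2 bind enhancers through a GATA site, often together with TAL1, an E-box-binding factor whose half-site stands at a fixed distance from the GATA site in many such enhancers, and with the partners LDB1 and LMO2. RUNX1, FLI1 and ERG bind many of the same enhancers in progenitors and megakaryocytes.

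Windows of 201 bp around the median summit of members are shown because the tests below turn on their sequence. Capitals mark AGATAA or TGATAA on either strand and, where the E-box half-site CTG lay 8 or 9 bases from GATAA, that half-site too. All are the plus strand of GRCm38 (mm10), read from the RefSeq assembly. The first 4 were among the members with the highest fold enrichment in all 4 MPP2 libraries, and the next was shared with 3 MEP libraries. The following 3 lay nearest to genes listed below under GATA factor complexes, of which Gata1 is also on the erythroid list. The last had no GATA match.
Shisa9, chr16:12020402-12020602: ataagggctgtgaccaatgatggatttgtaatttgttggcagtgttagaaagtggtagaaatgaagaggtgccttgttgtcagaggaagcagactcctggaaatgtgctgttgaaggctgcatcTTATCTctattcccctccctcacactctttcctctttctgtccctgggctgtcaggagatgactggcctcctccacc
Tnfsf8, chr4:63886186-63886386: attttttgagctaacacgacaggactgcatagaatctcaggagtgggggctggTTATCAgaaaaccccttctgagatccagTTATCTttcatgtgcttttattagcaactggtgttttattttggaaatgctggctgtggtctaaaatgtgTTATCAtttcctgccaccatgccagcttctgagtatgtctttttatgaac
Timm8a2, chr14:122024047-122024247: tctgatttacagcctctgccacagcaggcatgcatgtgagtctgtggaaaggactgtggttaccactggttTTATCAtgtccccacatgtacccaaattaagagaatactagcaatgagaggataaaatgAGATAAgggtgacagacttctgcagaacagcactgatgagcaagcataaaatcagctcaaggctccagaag
Mfap2, chr4:141008093-141008293: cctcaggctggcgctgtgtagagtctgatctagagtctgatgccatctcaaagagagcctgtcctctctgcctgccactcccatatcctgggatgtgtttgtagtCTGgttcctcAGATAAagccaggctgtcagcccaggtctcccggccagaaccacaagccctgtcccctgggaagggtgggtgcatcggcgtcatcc
Pde5a, chr3:122704297-122704497: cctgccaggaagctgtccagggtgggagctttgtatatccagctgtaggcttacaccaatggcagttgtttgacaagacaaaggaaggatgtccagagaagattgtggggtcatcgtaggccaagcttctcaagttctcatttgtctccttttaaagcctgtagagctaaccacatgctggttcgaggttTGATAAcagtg
Erg, chr16:95439902-95440102: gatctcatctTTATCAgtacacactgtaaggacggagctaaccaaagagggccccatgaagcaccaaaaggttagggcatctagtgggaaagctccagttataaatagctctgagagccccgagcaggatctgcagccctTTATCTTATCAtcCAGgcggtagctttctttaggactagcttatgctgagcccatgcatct
Cbfa2t3, chr8:122666415-122666615: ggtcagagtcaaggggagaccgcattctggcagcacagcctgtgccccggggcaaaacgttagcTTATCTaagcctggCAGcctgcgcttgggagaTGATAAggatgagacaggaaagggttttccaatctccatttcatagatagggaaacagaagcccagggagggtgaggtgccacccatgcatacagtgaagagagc
Gata1, chrX:7971381-7971581: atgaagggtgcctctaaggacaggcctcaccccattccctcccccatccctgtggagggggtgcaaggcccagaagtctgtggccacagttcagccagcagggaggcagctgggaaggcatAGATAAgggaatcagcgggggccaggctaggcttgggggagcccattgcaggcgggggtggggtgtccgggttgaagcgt
Map3k4, chr17:12289843-12290043: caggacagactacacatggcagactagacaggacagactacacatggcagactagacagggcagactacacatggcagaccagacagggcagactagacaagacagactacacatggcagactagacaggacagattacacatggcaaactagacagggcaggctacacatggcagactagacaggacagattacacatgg
Each window is named for the gene with the nearest transcription start site (TSS), which is a label of position and not an assigned target. The Cbfa2t3 window held the paired element with 9 bases between CTG and GATAA, and the Erg and Mfap2 windows held it with 8 bases.

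The MPP2 label was checked at the TSSs of the sorting antigens. A region over the Cd48 TSS was called in 4 of 4 MPP2 libraries and in 0 MPP1, 0 HSC and 0 MEP libraries, and it was also called in 2 MPP3, 4 MPP4, 4 GMP and 3 CLP libraries. The TSSs of Cd34, Kit and Flt3 were called in 4 of 4 MPP2 libraries and in every HSC, MPP1, MPP3, MPP4, GMP and CLP library, so they did not tell MPP2s from these fractions, and the Flt3 call went against a gate that was negative for Flt3. The Ly6a (Sca-1) TSS was called in 0 of 4 MPP2 libraries and Slamf1 (CD150) had no region over its TSS. The TSSs of Itga2b (CD41) and Pf4, megakaryocyte genes, and of Cpa3, a mast cell gene, were called in 4 of 4 MPP2 libraries but also in 7, 8 and 8 of 8 HSC libraries, and none of these regions was a member.

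The libraries held between 9581 and 63288 peaks, and the depth was equal by construction because the authors drew the same number of reads from each. MEP libraries held 9581 to 11041 peaks, whereas MPP1, MPP2 and MPP3 libraries held 27087 to 40157. Aged replicate 1 of MPP1 and aged replicate 1 of MPP2 stood apart with 40157 and 37898 peaks, and their shortest peaks were 165 and 163 bp against 176 to 191 bp in the other MPP1, MPP2, MPP3 and MEP libraries. Several results that rest on these libraries are therefore given with and without them. Other counts of members by their MPP1 or MPP2 calls are given only with them.

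Members were mostly weak and distal regions. Of the 621, 302 (48.6%) were intergenic, 286 (46.1%) intronic, 5 in coding exons, 5 in 3′ UTRs and 2 in 5′ UTRs, and 21 (3.38%) had their centre between 1000 bp upstream and 100 bp downstream of a protein-coding TSS. Promoters made up 26.8% of all regions called in 2 or more MPP2 libraries. The median distance of members to the nearest TSS was 29740 bp, against 21458 bp for the 25072 MPP2 regions not at a promoter, and the median width was 312 bp against 517 bp, where a region is the union of its peaks and so tends to be wider the more libraries call it. Their median GC content was 48.3% against 51.2%. The sets of MPP1, MPP3 and MEP lay at median distances of 29145, 33646 and 17425 bp from the nearest TSS. Their median widths were 300, 336 and 365 bp. The low promoter share and the small width were thus not particular to the MPP2 regions. Most nearest genes had a single member, since 574 of the 597 nearest genes had 1 and 22 had 2. Mtpap, a mitochondrial poly(A) polymerase gene on chromosome 18, had 3, which lay close to each other and had low enrichment.

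Within the peak lists members ranked low. The median fold enrichment over background at the members called was 6.45 and 6.40 in the 2 young MPP2 libraries and 7.34 and 6.63 in the 2 aged ones, whereas all peaks of these libraries had medians of 8.19, 8.14, 8.54 and 8.06. The highest −log10 q of a member over the MPP2 libraries had a median of 11.3 and ranged from 4.06 to 48.0, and 386 members reached 10. A region not called in HSCs can therefore hold signal under the authors' threshold, and absence below means absence of a call.

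The rule has a threshold on each side. Of the members, 371 were called in 2, 163 in 3 and 87 in all 4 MPP2 libraries. The 87 are 14% of the members, against 65.1% of all regions called in 2 or more MPP2 libraries, and nothing is read from this since MPP2 calls chose the members. Just outside, 1753 regions were called in 1 MPP2 library and no excluded library, with a median highest fold enrichment of 5.91 against 7.08 for members called in exactly 2. A further 422 regions were called in 2 or more MPP2 libraries and in exactly 1 excluded library, which was an HSC library for 227, an MPP4 library for 100, a GMP library for 79 and a CLP library for 16.

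**Figure D1:**
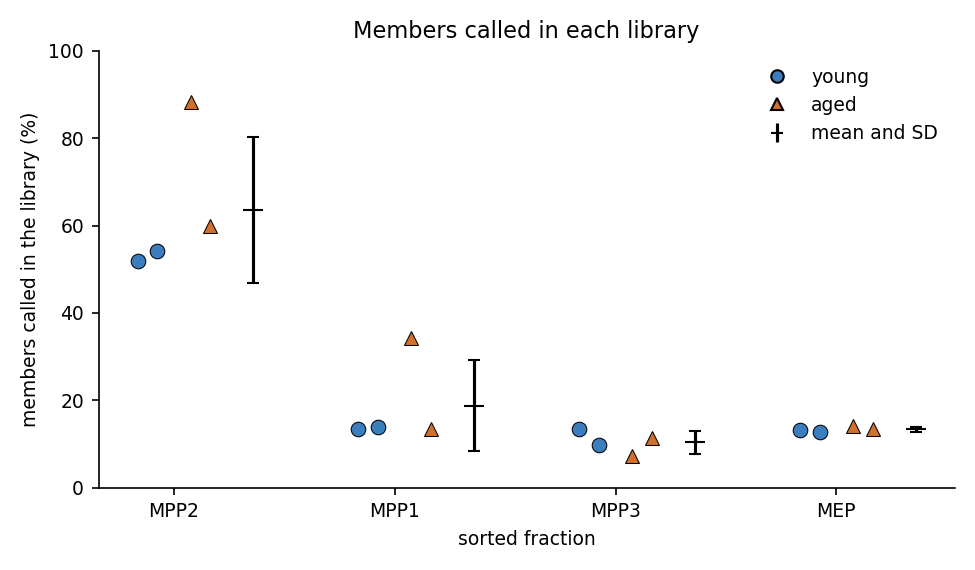
The percentage of the 621 members called (vertical axis) is plotted for each library of MPP2, whose calls chose the members, and of MPP1, MPP3 and MEP, with circles for young and triangles for aged libraries and a bar for the mean and SD of 4 libraries. Aged replicate 1 of MPP1 (34.3%) and of MPP2 (88.2%) lie above the other libraries of their fractions, and the 4 MEP libraries lie between 12.7% and 14.2%.

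The first question was which of the 3 fractions that the rule left free shared the members. MEPs, the committed megakaryocyte and erythroid progenitors, called 13.2% and 12.7% of members in the young libraries and 14.2% and 13.4% in the aged ones. MPP1s called 13.5% and 14% in young and 34.3% and 13.4% in aged libraries, and MPP3s 13.5% and 9.82% in young and 7.25% and 11.3% in aged libraries. The means were 13.4% ± 0.603 for MEP, 18.8% ± 10.3 for MPP1 and 10.5% ± 2.63 for MPP3 (SD, n = 4 libraries each). Apart from the 1 high MPP1 library, all 11 libraries lay between 7.25% and 14.2%.

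None of the 3 differences exceeded the spread between libraries. MEP minus MPP1 was -5.43 percentage points (two-sided exact permutation test over 4 against 4 libraries, p = 0.314, adjusted p = 0.314 over the 3 pairs). MEP minus MPP3 was 2.90 points (exact permutation adjusted p = 0.171), and MPP3 minus MPP1 was -8.33 points (exact permutation adjusted p = 0.171). Without aged replicate 1 of MPP1, MEP minus MPP1 was -0.268 points, and without the 2 libraries that stood apart it was 0.0264 points over 316 members. With equal numbers of peaks per library, that is the 9581 peaks with the highest −log10 q in each, the rule found 286 members in place of 621, and MEPs called 8.65 points more of these than MPP1s and 11.5 points more than MPP3s, both with an exact permutation adjusted p of 0.0429. With only peaks of a −log10 q of at least 10, which left 440 members, the sign was the opposite, with MEP minus MPP1 at -10.3 points and MEP minus MPP3 at -2.84 points (exact permutation adjusted p = 0.0429 for both). The order of these fractions, and the set of members, therefore differed between settings, and no order is read from them.

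Set against MPP2 regions in general, members were rarely called in MPP1 and MPP3. Of the members 122 (19.6%) were called in 2 or more MPP1 libraries, whereas 88.4% of the regions called in 2 or more MPP2 libraries were. For MPP3 the numbers were 58 members (9.34%) against 83.1%. For MEP they were 95 members (15.3%) against 27%, and with promoters left out on both sides 88 of 600 members (14.7%) against 14.5%. The share called in MEPs was thus near the background of distal MPP2 regions. With only peaks of a −log10 q of at least 10, the share called in 2 or more MEP libraries was 7.73% of 440 members. It was 28% of the 286 members with equal numbers of peaks per library and 19.6% without aged replicate 1 of MPP2. The background share was not counted at these settings, so the nearness is read at the main setting only. The rule removed every region called in HSCs and MPP4s, whose libraries called on average 72.8% and 76.8% of the regions called in 2 or more MPP2 libraries, so that the low MPP1 and MPP3 shares of members are in part set by the rule.

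The calls in the 3 fractions fell into a few combinations. No MPP1, MPP3 or MEP library called 214 members (34.5%), so these were seen in MPP2 alone. The share was 22.8% without aged replicate 1 of MPP2 and 44.1% without aged replicate 1 of MPP1. MPP1 alone called 138, MPP1 and MPP3 together 99, MEP alone 63, MPP3 alone 45, MPP1 and MEP 28, MPP3 and MEP 18, and all 3 fractions 16. By number of libraries, MEP calls were split, with 496 members called in 0, 30 in 1, 23 in 2, 32 in 3 and 40 in all 4 MEP libraries. MPP1 and MPP3 calls instead thinned out from 1 library upwards, with 159, 72, 36 and 14 members in 1, 2, 3 and 4 MPP1 libraries and 120, 39, 14 and 5 in MPP3 libraries. The members called in all 4 MEP libraries lay at a median of 11476 bp from a TSS and the 496 without an MEP call at 34166 bp.

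The same rule applied with another fraction in place of MPP2 found 373 regions for MPP1, 100 for MPP3 and 1048 for MEP. Of these sets the members shared 122 regions with MPP1 (19.6% of members and 32.7% of the MPP1 set), 58 with MPP3 (9.34% and 58.0%) and 95 with MEP (15.3% and 9.06%).

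Several members show these patterns region by region. The strongest member lay in an intron of Shisa9 (chr16:12020338-12020837), a gene for an auxiliary subunit of AMPA-type glutamate receptors. Its fold enrichment was 14.1 and 15.8 in young and 20.1 and 14.5 in aged MPP2s, while the MPP1 library with the highest value, aged replicate 1, had 12.8 and the 3 MPP3 libraries with a call had 5.31, 6.33 and 5.35. No MEP library called it.

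The member upstream of Tnfsf8, the gene for CD30 ligand (chr4:63886144-63886480, 24965 bp upstream), had a fold enrichment of 12.4 and 10.1 in young and 13 and 8.36 in aged MPP2s. Outside MPP2 it was called only in aged replicate 1 of MPP1, at 8.36. Its window held 3 GATA matches. A member 10529 bp upstream of Timm8a2, a mitochondrial import gene (chr14:122023953-122024336), had 9.50 and 9.28 in young and 12 and 10.0 in aged MPP2s. It was called in no MPP1 or MPP3 library and in 3 MEP libraries at 4.41, 5.03 and 5.21, below each MPP2 value.

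The intronic member of the kinase gene Map3k4 (chr17:12289586-12290374) was called in all 4 libraries of MPP1, MPP2 and MPP3 and in none of MEP, with 8.91 to 11.2 in MPP2, 5.81 to 9.29 in MPP1 and 5.28 to 7.48 in MPP3. Its window is a tandem repeat in which 1 word of 8 letters occurs 7 times. Of all members, 40 (6.44%) had a word of 8 letters at least 5 times in the window, against 5.14% of regions called in 2 or more MPP2 libraries.

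Other members with 2 or more MEP calls were also prominent in aged MPP2s. A member 24582 bp upstream of Pde5a, the cGMP phosphodiesterase gene (chr3:122704168-122704561), had 8.06 in 1 young and 8.41 and 14.4 in aged MPP2s and 8.93, 7.30 and 7.96 in 3 MEP libraries. An intronic member of Frmd4a (chr2:4467309-4467686) had 7.85 and 12 in aged MPP2s and 4.86, 6.86 and 7.29 in 3 MEP libraries.

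The 5 members named for the most MPP1 or MPP3 calls, Map3k4 among them, had no MEP call. The member downstream of Neurod6 (chr6:55609141-55609544) was called in both aged MPP2 libraries at 15.2 and 11.5, in all 4 MPP1 libraries at 4.75 to 11.2 and in 3 MPP3 libraries at 6.42 to 11.5, but in no young MPP2 library. Members nearest to Tnp1, Pax1 and Dock8 were called in all 4 MPP2 libraries, at 7.92 to 12.9, 8.08 to 13.6 and 7.91 to 9.49, and in 4, 3 and 3 MPP1 and 2, 4 and 4 MPP3 libraries.

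The second question was whether members carried the sequence of the GATA programme. A match to AGATAA or TGATAA lay within 100 bp of the median summit in 406 of 621 members (65.4%). The share was 17% over all regions of the catalogue, 17.3% over regions called in 2 or more MPP2 libraries and 21.9% over such regions not at a promoter. Members had 1 match in 46.2% and 2 or more in 19.2% of cases, against 18.2% and 3.68% of MPP2 regions not at a promoter. The members' median GC content was lower than that of MPP2 regions not at a promoter, and its part in the GATA share was not tested. The set that the same rule finds for MPP1 had a GC content of 48.8% and a GATA share of 42.1%. For MPP3, with 100 regions, these were 49.8% and 51.0%.

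**Figure D2:**
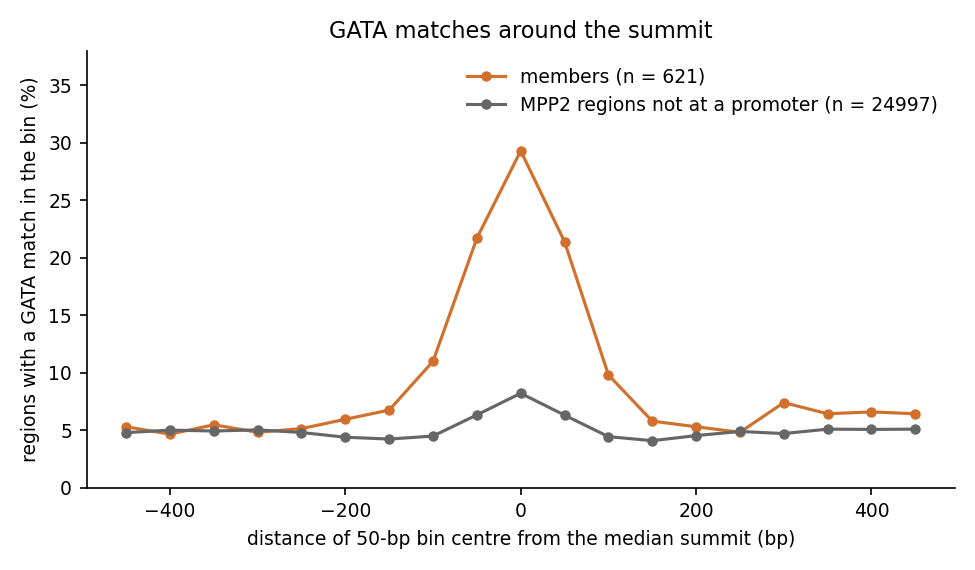
The percentage of regions with a GATA match (vertical axis) is plotted in bins of 50 bp by distance from the median summit (horizontal axis) for the 621 members and for 24997 MPP2 regions not at a promoter with sequence. In members it reaches 29.3% at the summit, against 5.96% and 5.31% at 200 bp on either side.

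The matches were centred on the summit. In members 29.3% of regions had a match in the bin at the summit and 21.7% and 21.4% in the bins 50 bp to either side, whereas bins 200 bp away had 5.96% and 5.31%. In members with a match the nearest one lay at a median of 29 bp from the summit, against 36 bp in MPP2 regions not at a promoter.

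The test of this feature was made per library, over all regions called in that library and in 0 of the 20 excluded libraries, so that 1 call in MPP2 was enough and the choice of 2 or more MPP2 libraries played no part. MPP2 libraries had a GATA match in 48.9% of 607 and 47.2% of 661 such regions in young and in 54.9% of 1444 and 59.8% of 620 in aged mice. MPP1 libraries had 135 of 451 (30%) and 28.1% in young and 32% and 29.9% in aged mice, MPP3 libraries 26.3% and 34.5% in young and 37.2% and 41.2% in aged mice, and MEP libraries 70.8% and 72.6% in young and 72.2% and 72.0% in aged mice. Every MPP2 library was above every MPP1 and MPP3 library and below every MEP library.

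The MPP2 mean was 52.7% ± 5.78 (SD, n = 4 libraries), which exceeded the MPP1 mean of 30% ± 1.61 by 22.7 points and the MPP3 mean of 34.8% ± 6.30 by 17.9 points. It was below the MEP mean of 71.9% ± 0.762 by 19.2 points, a difference of -19.2. Each of the 3 differences had an exact permutation adjusted p of 0.0286, the smallest that 4 against 4 libraries allow, with libraries taken as unpaired. With same-numbered libraries taken as pairs, the exact permutation p was 0.125 for each, the smallest that 4 pairs allow. Without the 2 libraries that stood apart, the difference from MPP1 was 22.3 points (exact permutation adjusted p = 0.1, the smallest that 3 against 3 libraries allow), and the differences from MPP3 and MEP were 16.6 and -20.3 points (exact permutation adjusted p = 0.0429 for both). The differences from MPP1 and MPP3 stayed positive under every alternative run, between 13.1 and 28.8 points and between 9.93 and 26.8 points. The difference from MEP did not keep its sign, since with equal numbers of peaks per library MPP2 was 6.37 points above MEP (exact permutation adjusted p = 0.0286). Regions called in several fractions enter the share of each.

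**Figure D3:**
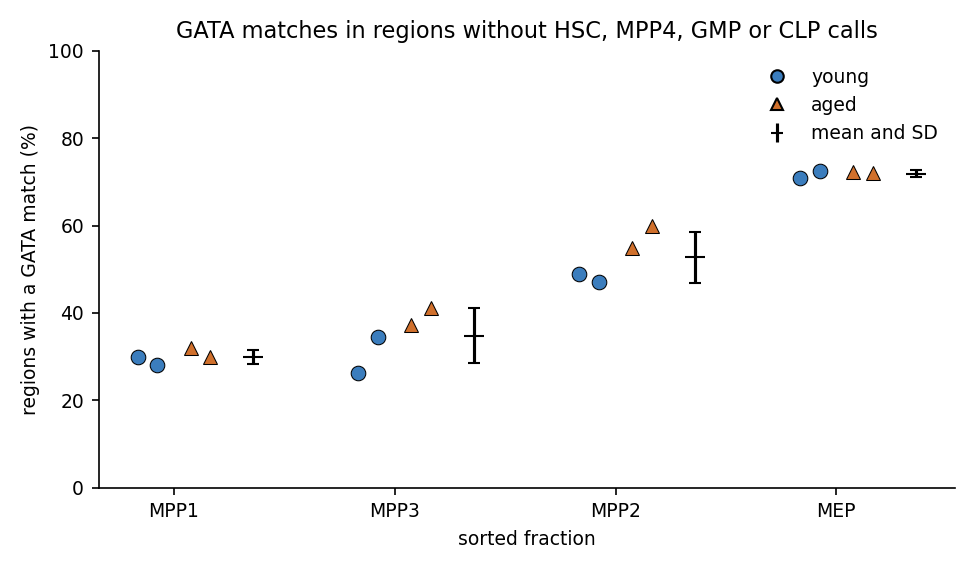
The percentage of regions with a GATA match (vertical axis) is plotted for each library, over the regions called in it and in no HSC, MPP4, GMP or CLP library, with circles for young and triangles for aged libraries and a bar for the mean and SD of 4 libraries. The 4 MPP2 libraries lie between 47.2% and 59.8%, above all MPP1 and MPP3 libraries and below all MEP libraries.

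Within the members the GATA share varied with the calls in other libraries. It was 61.1% in the 496 members without an MEP call and 80%, 78.3%, 87.5% and 82.5% in those called in 1, 2, 3 and 4 MEP libraries. The 63 members called in MEP but not in MPP1 or MPP3 had 77.8%, and the 138 called in MPP1 alone had 54.3%. The 214 members seen in MPP2 alone had 65.9%, as high a share as that of all members. By MPP2 calls, which chose the members, it was 60.4%, 67.5% and 82.8% for 2, 3 and 4 libraries. The regions just outside the rule had 40.3% with 1 MPP2 call and 55.2% with 1 call in an excluded library.

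**Figure D4:**
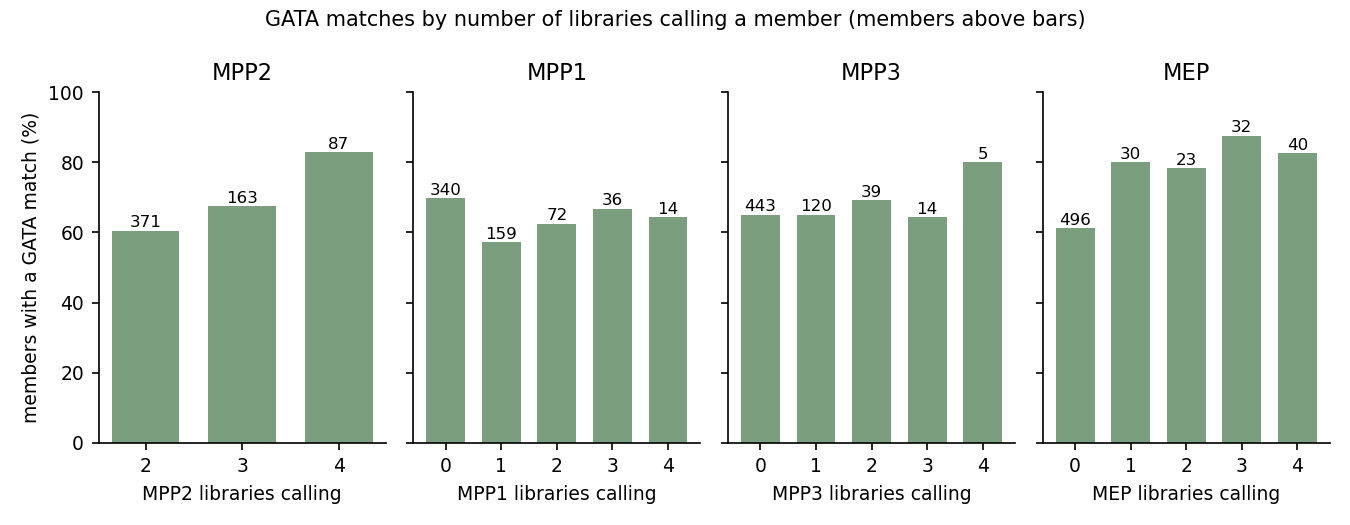
The percentage of members with a GATA match (vertical axis) is plotted by the number of MPP2, MPP1, MPP3 and MEP libraries that called the member (horizontal axes), with the number of members above each bar. The share is 61.1% without an MEP call and between 78.3% and 87.5% with 1 or more, and by MPP1 calls it lies between 57.2% and 69.7%.

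The paired element of an E-box half-site and a GATA site was also counted, without a test. CTG with 8 or 9 bases to GATAA was found in 91 members (14.7%), in 3.98% of MPP2 regions not at a promoter, in 7.24% of the MPP1 set and in 25.3% of the MEP set. The spacing of 9 bases was the most frequent, in 66 members (10.6%), while each other spacing from 4 to 14 bases was found in 2.09% to 4.19% of members. In MPP2 regions not at a promoter a spacing of 9 bases was found in 2.37%. By MEP calls the pair was present in 11.5% of members without a call and in 20.0% to 34.8% of those called in 1 to 4 libraries.

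Other motifs differed less. RUNX (TGTGGT) was found in 33.8% of members against 28.9% of MPP2 regions not at a promoter, and MEIS (TGACAG) in 21.6% against 16.7%. ETS (CAGGAAG or CCGGAAG) was at 25.9% against 26.2%, AP-1 (TGACTCA or TGAGTCA) at 14.2% against 13% and the E-boxes CAGCTG or CAGATG at 32% against 29.4%. Lower in members were the E protein site CAGGTG, at 6.44% against 11.4%, the C/EBP site TTGCNNAA, at 5.80% against 8.91%, and the PU.1 site GAGGAAGT, at 6.12% against 9.28%. KLF (CCACNCCC) was at 9.18% against 9.79%. NF-E2 (TGAGTCAGC or TGACTCAGC, which contain the AP-1 letters), HOX (TGATTTAT), STAT (TTCCNGGAA), IRF and MEF2 were each at 2.58% or less in members and at 3.65% or less in MPP2 regions not at a promoter. These shares are descriptions without a test, and a match is not a bound site.

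Members and the MEP set differed in the motifs beside GATA. ETS matches were found in 25.9% of members but in 7.35% of the MEP set, AP-1 in 14.2% against 4.58%, PU.1 in 6.12% against 0.573% and RUNX in 33.8% against 26.1%. In these motifs members were nearer to the MPP1 set, which had 22%, 11.5%, 6.17% and 31.9%. The GATA share was 73.8% in the MEP set, 65.4% in members and 42.1% in the MPP1 set, while the paired element in members (14.7%) lay between the MPP1 set (7.24%) and the MEP set (25.3%).

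**Figure D5:**
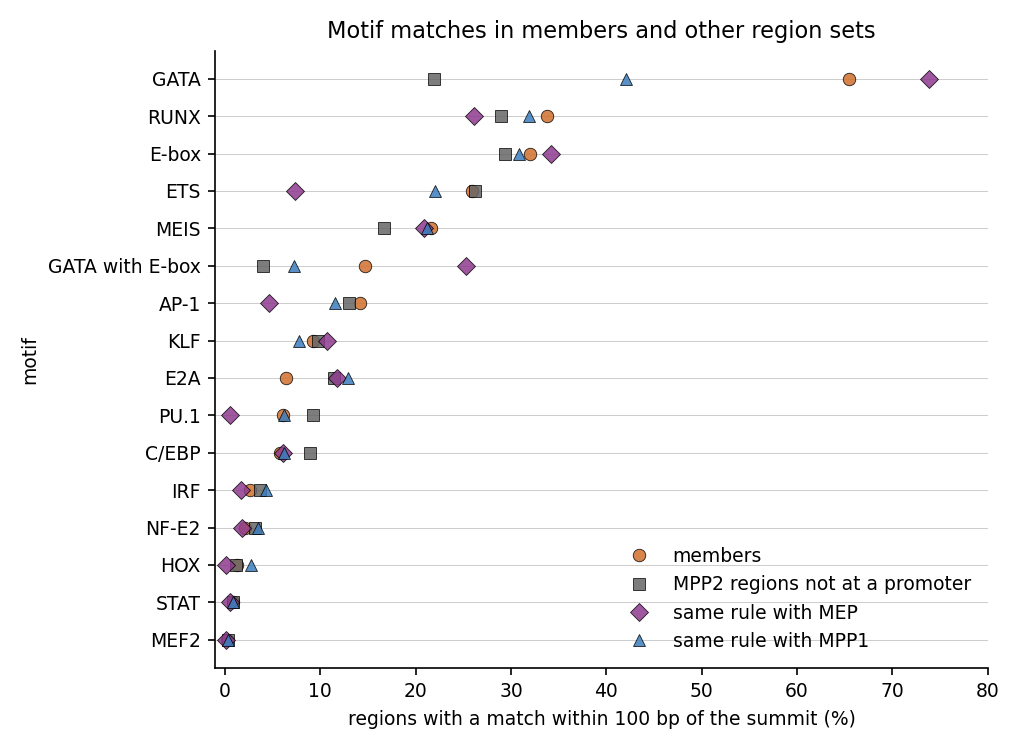
The percentage of regions with a match within 100 bp of the summit (horizontal axis) is plotted for 16 motifs (vertical axis) in members, in MPP2 regions not at a promoter and in the sets that the same rule found with MEP or MPP1 in place of MPP2. The GATA share is 65.4% in members and 21.9% in MPP2 regions not at a promoter, and the ETS share of the MEP set, 7.35%, lies apart from the other sets.

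The third question concerned age. In the 3 fractions that the rule left free, aged libraries called 2.82 points more of the members than young ones when averaged over MPP1, MPP3 and MEP (two-sided exact permutation test with ages permuted within fractions, p = 0.722). The means were 13.8% and 23.8% in young and aged MPP1s, 11.7% and 9.26% in MPP3s and 13% and 13.8% in MEPs. Without aged replicate 1 of MPP1 the difference was -0.670 points (exact permutation p = 0.574), so its sign rested on that library. No difference by age was detectable.

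In MPP2 itself age is a description. Aged libraries called 88.2% and 59.9% and young libraries 52.0% and 54.1% of members, and both aged libraries were above both young ones. Both aged and no young libraries called 136 members (21.9%), against 4.72% of all regions called in 2 or more MPP2 libraries. Both young and no aged libraries called 31 members (4.99%), against 2.73%. Such a split needs exactly 2 MPP2 calls, which 59.7% of members had, whereas 65.1% of the regions called in 2 or more MPP2 libraries were called in all 4, so the choice of members makes these shares unlike and nothing is read from the gap. A member of the first kind had to be called in aged replicate 1, the library that stood apart, and without this library the rule found 316 members in place of 621. A GATA match was present in 69.1% of the 136 and in 32.3% of the 31, and promoters made up 1.47% and 12.9% of them. The GATA share of all MPP2 regions with the same splits was not counted, so no effect of age is read from this. With 2 libraries per age an exact permutation test within MPP2 could not go below p = 0.333.

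Among the aged MPP2 members with the highest enrichment were the one nearest to Neurod6, described above, and one nearest to Ubash3b, a phosphatase gene (chr9:41178721-41179002, 9.29 and 8.72 in aged MPP2s). The Ubash3b member was also called in replicate 1 of young and of aged MPP1, at 5.96 and 8.40, and its window was repeat-masked over its whole length. The young MPP2 members with the highest enrichment lay nearest to Mcur1 (6.99 and 6.93), Syce1l (7.52 and 6.93) and Il2ra, the interleukin-2 receptor alpha chain gene (6.83 and 6.34). Outside MPP2, aged libraries also called 2 of them. Aged replicate 1 of MPP1 called the Il2ra member at 8.23, above its MPP2 values, and aged replicate 2 of MPP3 called the Mcur1 member at 4.05.

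Of the 21 members at promoters, the 3 with the highest enrichment were at Nts, the neurotensin gene, with 8.42 and 7.32 in 1 young and 1 aged MPP2 library, at Panx3, a pannexin channel gene, with 6.99 and 7.04, and at Plce1, a phospholipase C gene, with 7.47 and 6.27. Each was also called in 2 MPP1 libraries and in no MPP3 or MEP library.

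The genes of blood lineages accounted for few members. Of the lists of marker genes, the 25 megakaryocyte genes were nearest to 4 members (0.644%, against 0.260% of regions called in 2 or more MPP2 libraries), the 36 erythroid genes to 3 (0.483% against 0.245%), the 15 genes of GATA factor complexes to 4 (0.644% against 0.228%) and the 12 stem cell genes to 1, near Thy1 (0.161% against 0.161%). The 20 mast cell and basophil, 5 eosinophil, 16 granulocyte and macrophage, 16 lymphoid, 14 endothelial and stromal genes and the 6 sorting antigens were nearest to 0 members, and each of these lists was nearest to 0.0963% or less of the regions called in 2 or more MPP2 libraries. Fli1 and Gata1 are on 2 of these lists, so 10 members were involved in all.

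Among the members near erythroid genes, 2 are described. The member 3637 bp upstream of Gata1, the erythroid and megakaryocyte GATA factor (chrX:7971341-7971752), had 6.99 and 4.27 in young and 5.82 in 1 aged MPP2 library and 6.56 in 1 MEP library. The intergenic member nearest to Bcl11a, a repressor of fetal globin genes (chr11:24724472-24724785), lay 643959 bp from the TSS and had 6.45, 6.40 and 6.73 in 3 MPP2 libraries, with no call in MPP1, MPP3 or MEP.

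Genes of GATA complexes and of megakaryocytes gave the others. An intronic member of Erg, an ETS factor gene of stem cells and megakaryocytes (chr16:95439667-95440105), had 5.47 in 1 young and 7.22 and 6.46 in aged MPP2s, 6.57 in 1 MPP3 and 5.39 and 5.12 in 2 aged MEP libraries, and its window held 3 GATA matches. An intronic member of Cbfa2t3, the gene of the TAL1 corepressor ETO2 (chr8:122666417-122666626), had 6.60 and 5.62 in 2 MPP2 libraries and 6.29 in 1 MEP library. The member 48429 bp upstream of Fli1, an ETS factor of megakaryocytes (chr9:32589855-32590192), had 5.23 and 5.26 in 2 MPP2 libraries and no other call.

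Mef2c and Rab27b completed the megakaryocyte list. The 2 members nearest to Mef2c, a transcription factor gene, lay 461953 and 431785 bp upstream of its TSS. The first (chr13:83041659-83042503) was called in all 4 MPP2, 3 MPP1 and 3 MPP3 libraries, at 6.11 to 9.32 in MPP2. Its window was 88.1% repeat-masked and held 1 word of 8 letters 19 times. The second (chr13:83072154-83072343) was called only in aged MPP2s, at 6.06 and 5.30. The intronic member of Rab27b, a platelet granule gene, had 5.91 and 8.41 in 1 young and 1 aged MPP2 library and no other call. The members described at these listed genes ranked low among the peaks of the MPP2 libraries that called them, with a lowest percentile of fold enrichment within a library between 2.4 and 26.1.

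The nearest region called in 2 or more HSC libraries was at a median of 8674 bp from members, against 10004 bp from MPP2 regions not at a promoter, and 329 members (53.0%) had one within 10 kb, against 50% of MPP2 regions not at a promoter. The genes with the most members were Mtpap with 3 and Ank and Arpp21 among the 22 genes with 2. The Ank members, 1 in an intron and 1 far upstream of this pyrophosphate transporter gene, had 5.74 to 7.54 in 2 MPP2 libraries each. One of the Arpp21 members was called in all 4 MPP2 libraries, at 10.2 and 5.87 in young and 11.2 and 6.79 in aged mice, and the other in both aged and no young MPP2 library, at 4.37 and 5.37, and in 1 MPP3 library at 5.48 and 2 MEP libraries at 5.84 and 4.47.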

How the data were processed

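ATAC-seq was measured in 36 libraries of 8 marrow fractions. The authors sorted 20000 cells per library, selected fragments by size, sequenced single reads of 60 bp, aligned them to mm10 with Bowtie2, drew the same number of reads from each library and called peaks with MACS2 2.2.6 at a q-value cutoff of 0.001. The deposited narrowPeak files hold, for each peak, a score, a ratio (fold enrichment over background), its p-value and q-value as −log10, with no counts per region, so the number of reads behind a value is unknown and no interval from reads is given.

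From these files the 1358077 entries were reduced to 1204561 peaks, taking the summit with the highest −log10 q for each interval, and peaks overlapping by 1 bp or more were merged. A library called a region if it had any peak there. Promoters, exons and introns came from protein-coding transcripts of the GENCODE M21 basic set, and the 16 motifs were searched on both strands in the 201-bp window around the median summit, read from the GRCm38 RefSeq assembly. Groups came from the sample labels. Differences between fractions were tested with two-sided exact permutation tests over libraries (70 labellings for 4 against 4), adjusted after Benjamini and Hochberg over 3 pairs, and age with ages permuted within fractions (216 labellings, smallest p = 0.00926). The threshold was 0.05. Merging, motif search and tests were checked on simulated data. Python 3.11.15 with numpy 2.4.6, pandas 2.3.3, scipy 1.17.1 and pysam 0.24.0 was used.

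The members, the motif and gene lists and the rule for named regions were chosen with earlier results of these data known. The rule named the 6 members with the highest lowest percentile of fold enrichment over 4 MPP2 libraries and the 6 highest with 2 or more MEP calls, the 3 called most in MPP1 and in MPP3, the 3 highest of aged and of young MPP2s and of promoters, all nearest to a gene of the megakaryocyte, erythroid, mast cell or GATA lists, and the 3 genes with the most members. The alternative that leaves out both libraries that stood apart was chosen after seeing the data. Some regions that this rule names are not reported here.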

Additional observations from a re-analysis of the deposited data

Results flagged for a closer look

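The percentage of members called in aged replicate 1 of MPP1 was 34.3%, far from the 13.4% to 14% of the other 3 MPP1 libraries relative to their range. The number of regions called in aged replicate 1 of MPP2 and in no HSC, MPP4, GMP or CLP library was 1444, against 607 to 661 in the other MPP2 libraries. The median fold enrichment at the members called in aged replicate 1 of MPP3 was 6.86, against 5.87 to 5.99 in the other MPP3 libraries. Of 24 groups of 4 libraries examined in this way these 3 held a library beyond Dixon's 95% critical value, and chance gives about 1 in 20 groups. The groups are not independent of each other, and those of MPP2 rest on calls that the rule used. The screen therefore flags libraries and is no test of the members.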

How the results depend on the processing

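The GATA share of regions in MPP2 libraries stayed above that of MPP1 and MPP3 under every alternative run. Leaving out each of the 36 libraries in turn gave differences of 20.6 to 24.5 points from MPP1, 15.2 to 20.0 from MPP3 and -21.6 to -17.5 from MEP, all past the threshold. With both libraries that stood apart left out, the difference from MPP1 was 22.3 points (exact permutation adjusted p = 0.1), MEP minus MPP1 in members called 0.0264 points, aged minus young -2.48 points, members 316 and members near listed genes 6. With equal numbers of peaks per library there were 286 members, 3 near listed genes, MEP minus MPP1 was 8.65, MEP minus MPP3 11.5 and MPP2 minus MEP in GATA share 6.37 points. At a −log10 q of at least 10, MEP minus MPP1 was -10.3, MEP minus MPP3 -2.84 points (exact permutation adjusted p = 0.0429 for both, as for the opposite signs with equal numbers of peaks) and the GATA share of members 71.5%, and with calls limited to peaks spanning at least 50% of a region, MEP minus MPP3 was -0.491 points. The cause of these changes was not tested. Requiring 3 MPP2 libraries gave 250 members with a GATA share of 72.8% and 5 near listed genes, and allowing 1 excluded library gave 1043, 61.3% and 20. A GATA match anywhere in the region gave 71.7% and the longer pattern 34.5% of members, and a promoter from 2000 bp upstream to 500 bp downstream gave 5.80%. After subtraction of the share of all MPP2 regions called, MEP minus MPP1 was 52.5 and MEP minus MPP3 55.3 points, values that follow from the subtracted means of 25.1% for MEP, 83% for MPP1 and 77.5% for MPP3 and say nothing of the members.

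Leaving out 1 library at a time moved the number of members from 316 (without aged replicate 1 of MPP2) to 690, those near listed genes from 6 to 13, MEP minus MPP1 in members called from -9.57 to -0.268 points, MEP minus MPP3 from -0.221 (without aged replicate 2 of MPP2) to 4.53 points, MPP3 minus MPP1 from -10.1 to -3.16 points and aged minus young from -0.670 (without aged replicate 1 of MPP1) to 6.31 points. The pairs of fractions passed the threshold in 10 cases, with adjusted p = 0.0429 by the exact permutation test, on leaving out young replicate 1 of HSC or MPP4, aged replicate 1 of HSC or either young MPP2 library. The labels do not say whether same-numbered libraries came from 1 pool of marrow, and the main tests took them as unpaired. Deviations of same-numbered libraries correlated above 0.1 in 5 of 28 pairs of groups, with the highest value, 0.185, for aged MPP1 and aged MPP2. These values do not settle whether the libraries were paired. With a replicate block the differences in GATA share were the same 22.7, 17.9 and -19.2 points, with p = 0.125 for each, the smallest that 4 pairs allow in an exact permutation test.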
